A study of Homo sapiens with 8 samples.

Results

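The genes described here are 38 genes of sterol and fatty acid synthesis, measured by RNA-seq in aggregates of IGR-N91, a human neuroblastoma (NB) cell line. They were taken from a list of gene symbols, drawn up with earlier results of these data known, and all 38 were found among the 60676 genes of the count table. Of the 38, 37 had enough reads to be tested, out of 16680 tested genes. The list was split by role into 5 regulators, 7 enzymes of the mevalonate steps, 11 enzymes of the sterol steps, 3 sterol transport genes, 8 genes of fatty acid synthesis and 4 genes of sterol efflux and its control.

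The study had 4 groups of 2 libraries each, all from IGR-N91 cells grown as aggregates in hanging drops. One group was kept in control medium, and the others were exposed to medium conditioned by sympathetic ganglia of chick embryos at embryonic day 8 (E8-cSGcm), by dorsal root ganglia of chick embryos at embryonic day 8 (E8-cDRGcm) or by sympathetic ganglia of mouse embryos at stage E15.5 (E15.5-mSGcm). The exposure was 20 h by the sample labels and 24 h by the design text. All groups share a single cell line, and the medium is the only difference that the labels state between them. The library names mark the control libraries E8, like those of the chick media, and no control is named for the mouse stage. The labels do not say whether the libraries of a group came from separate batches of conditioned medium or separate cultures, so that the p-values measure the spread between these libraries, which may be technical. E15.5-mSGcm differs from both chick media in species and in stage, and from E8-cDRGcm also in the type of ganglion. These differences cannot be told apart.

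Cells make cholesterol from acetyl-CoA through the mevalonate pathway, which yields isoprenoid units that are joined into squalene, cyclised to lanosterol and trimmed to cholesterol. Transcription of these enzymes is driven by the SREBP factors, which SCAP escorts out of the endoplasmic reticulum when membrane sterol is low and which the INSIG proteins hold back when it is high. SREBF2 encodes the form best known for sterol genes and SREBF1 the form best known for fatty acid genes. The LXR nuclear receptors respond to sterol excess: bound by oxysterols, they raise the efflux transporters ABCA1 and ABCG1, the ubiquitin ligase MYLIP, which removes lipoprotein receptors, and SREBF1.

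Promoter sequences are given for 5 of these genes as examples from the regulators, the mevalonate steps, fatty acid synthesis and efflux. They cover the 250 bases before the start of transcription, from RefSeq on GRCh38.p14, printed in the direction of the gene. Capitals mark matches, on either strand, to the sterol regulatory element TCACNCCAC (SRE), to CCAAT, the core of the NF-Y site, or to GGGCGG, the core of the Sp1 site. The stretches are chr22:41832855-41833104 (plus strand) for SREBF2, chr7:155297628-155297877 (plus strand) for INSIG1, chr5:43313413-43313662 (minus strand) for the first of 2 listed starts of HMGCS1, chr11:61817004-61817253 (minus strand) for FADS1 and chr9:104928156-104928405 (minus strand) for ABCA1.
SREBF2: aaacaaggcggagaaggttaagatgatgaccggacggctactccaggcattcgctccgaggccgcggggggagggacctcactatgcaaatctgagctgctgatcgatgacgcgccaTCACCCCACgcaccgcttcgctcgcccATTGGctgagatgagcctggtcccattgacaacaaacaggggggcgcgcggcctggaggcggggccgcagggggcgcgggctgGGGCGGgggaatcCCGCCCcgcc
INSIG1: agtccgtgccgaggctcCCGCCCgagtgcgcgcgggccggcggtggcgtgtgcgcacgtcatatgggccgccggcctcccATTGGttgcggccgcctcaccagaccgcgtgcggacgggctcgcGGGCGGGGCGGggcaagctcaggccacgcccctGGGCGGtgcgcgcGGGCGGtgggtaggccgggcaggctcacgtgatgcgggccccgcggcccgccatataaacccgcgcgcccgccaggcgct
HMGCS1: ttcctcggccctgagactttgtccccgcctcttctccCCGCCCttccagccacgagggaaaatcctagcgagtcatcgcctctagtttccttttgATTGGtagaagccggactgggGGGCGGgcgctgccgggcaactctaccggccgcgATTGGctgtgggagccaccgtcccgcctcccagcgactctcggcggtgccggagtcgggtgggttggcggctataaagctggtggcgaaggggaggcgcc
FADS1: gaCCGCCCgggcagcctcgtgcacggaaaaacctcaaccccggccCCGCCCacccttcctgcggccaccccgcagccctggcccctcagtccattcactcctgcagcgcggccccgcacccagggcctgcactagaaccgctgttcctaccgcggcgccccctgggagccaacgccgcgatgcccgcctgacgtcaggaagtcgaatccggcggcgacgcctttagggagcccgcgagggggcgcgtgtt
ABCA1: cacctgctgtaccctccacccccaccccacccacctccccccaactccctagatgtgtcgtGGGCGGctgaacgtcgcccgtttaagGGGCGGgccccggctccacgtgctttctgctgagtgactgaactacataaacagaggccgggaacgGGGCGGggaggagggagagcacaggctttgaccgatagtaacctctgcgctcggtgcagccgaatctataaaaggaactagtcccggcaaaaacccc

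Promoters of 33 of the 38 genes were matched in the RefSeq table. CCAAT was found in 13 of 15 matched genes of the mevalonate and sterol steps (86.7%), in 3 of 7 matched genes of fatty acid synthesis (42.9%) and in 1 of 3 matched efflux genes (33.3%), against 37% of all 27305 genes in the table. The 2 genes of the mevalonate and sterol steps without it were PMVK and CYP51A1. GGGCGG was found in 32 of 33 genes (97.0%), NSDHL being the exception, against 46.2% of all genes. The strict 9-letter SRE was found in SREBF2 only among the 33 genes (3.03%), against 1.09% of all genes. These matches describe the letters of the windows. The 27305 genes were not limited to genes tested here, so no share among expressed genes is given. For a gene with more than one listed start, a match in any of them was counted.

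Total counts per library were between 7930765 and 15060744, with the lowest values in the libraries of E15.5-mSGcm, so 3 counts corresponded to between 0.197 and 0.384 normalized CPM, the count scaled to a library of equal size. The libraries of a group differed beyond counting error (chi-square of 1.87 to 3.95 per gene). The 8 neuroblastoma markers were all detected, and their summed level was 5940 to 6030 CPM in control medium, 4400 to 4680 in E8-cSGcm, 3540 to 3640 in E8-cDRGcm and 3570 to 3730 in E15.5-mSGcm. MYCN made up most of each sum, with group means of 4640 CPM in control medium, 3400 in E8-cSGcm, 2500 in E8-cDRGcm and 2640 in E15.5-mSGcm. The markers did not move alike in E15.5-mSGcm. Their log2 fold changes there were below 0 for 6 and above 0 for 2, from -3.03 (TH) to 0.47 (DBH). The Schwann and satellite glia markers SOX10 and FABP7 were at 0 in all libraries, and the glia list summed to at most 4.1 CPM. ERBB3, of the same list, was higher in E8-cDRGcm (3.4-fold, adjusted p = 0.000165) and in E15.5-mSGcm (3.29-fold, adjusted p = 0.00108), with group means of 2.55 and 2.45 CPM against 0.755 in control medium. The 4 endothelial markers (of which 3 were matched), the 4 leukocyte markers and the 4 adipocyte and hepatocyte markers summed to at most 1.07 CPM in any library. The 6 fibroblast markers summed to 158 to 175 CPM in control medium, 212 to 223 in E8-cSGcm, 194 to 200 in E8-cDRGcm and 162 to 174 in E15.5-mSGcm. In E15.5-mSGcm, 4 of these 6 were higher than in control medium (COL1A2, DCN, LUM and PDGFRA) and COL1A1 was lower. The part of these marker shifts in the results below was not tested. In bulk RNA, fewer cells of a type and less RNA per cell cannot be told apart.

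The first question was how each conditioned medium moved the whole list relative to control medium. A gene counted as called, higher or lower, when its adjusted p was below 0.05 and its level differed 1.5-fold or more. In E8-cSGcm, 1 of the 37 tested genes was called higher and 5 were called lower, where 4.73% of all tested genes were called higher and 3.86% lower. E8-cDRGcm gave 3 higher and 12 lower, with 9.81% and 10.9% of all tested genes. E15.5-mSGcm gave 10 higher and 1 lower, with 6.65% and 7.27% of all tested genes. The median log2 fold change of the 37 genes was -0.10 in E8-cSGcm, -0.25 in E8-cDRGcm and 0.27 in E15.5-mSGcm, while the median of all tested genes was 0.01, 0.006 and -0.015. The 3 comparisons share the control libraries.

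Of the 37 genes, 21 were called in at least 1 medium and 16 in none. MYLIP was the gene called in all 3 media, 9 genes were called in 2 media and 11 in 1 medium. The same numbers were not counted over all tested genes, so they describe the list alone. LSS, ELOVL6, FADS1, FADS2 and ABCA1 were called lower in both chick media. IDI1 and HSD17B7 were called lower in E8-cDRGcm and higher in E15.5-mSGcm, and ABCG1 higher in E8-cDRGcm and lower in E15.5-mSGcm. The heat map of the 37 genes shows each library against the mean of the control libraries.

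**Figure D1:**
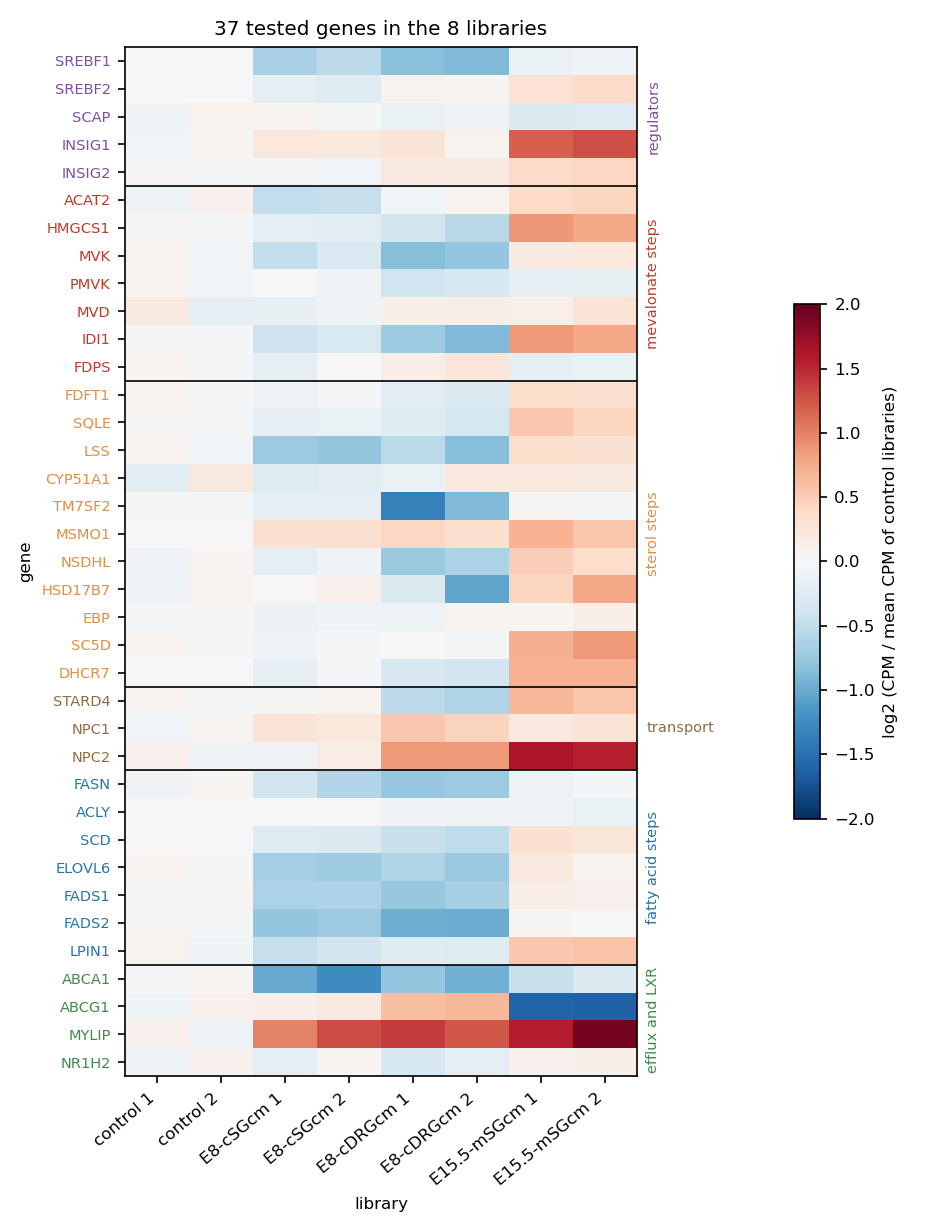
Level of the 37 tested genes (rows, ordered by role and named in the colour of the role) in the 8 libraries (columns), as log2 of the normalized CPM over the mean CPM of the control libraries, with red above and blue below control. The fatty acid genes FADS1, FADS2 and ELOVL6 are blue in the 4 libraries of chick media, INSIG1, HMGCS1 and IDI1 are red in both libraries of E15.5-mSGcm, and MYLIP is red in all 6 libraries of conditioned media.

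Among the 5 regulators, SREBF1 was lower in E8-cDRGcm and INSIG1 was higher in E15.5-mSGcm, and no other call against control medium was made. SREBF1 (ENSG00000072310) had 57.9 and 56.9 CPM in control medium, 36.7 and 40.1 in E8-cSGcm, 32.1 and 31.0 in E8-cDRGcm and 52.4 and 54.8 in E15.5-mSGcm. The libraries of both chick media lay below all others. The decrease in E8-cDRGcm was 1.82-fold (log2 fold change -0.86, SE 0.0763, adjusted p = 4.9e-12). In E8-cSGcm the log2 fold change was -0.58 (SE 0.0743, adjusted p = 1.03e-07), a fold of 1.49 that fell just short of the fold criterion. It passed the criterion without E8-cSGcm replicate 2 (-0.64), without control replicate 2 (-0.59) and without E8-cDRGcm replicate 1 (-0.59).

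INSIG1 (ENSG00000186480), which retains SCAP in the endoplasmic reticulum and is itself raised by SREBP, had 31.5 and 34.1 CPM in control medium, 37.8 and 37.5 in E8-cSGcm, 39.1 and 34.6 in E8-cDRGcm and 74.8 and 80.0 in E15.5-mSGcm. Both libraries of E15.5-mSGcm lay apart from the 6 others. The increase in E15.5-mSGcm was 2.36-fold (log2 fold change 1.24, SE 0.0801, adjusted p = 2.44e-15). Against the chick media directly, it was 2.06-fold higher than in E8-cSGcm (adjusted p = 1.13e-13) and 2.1-fold higher than in E8-cDRGcm (adjusted p = 2.92e-14). Its log2 fold changes in the chick media were 0.20 and 0.17, neither of which was called (adjusted p = 0.0698 and 0.0973).

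SREBF2 (ENSG00000198911) had 154 and 156 CPM in control medium, 136 and 130 in E8-cSGcm, 162 and 160 in E8-cDRGcm and 190 and 203 in E15.5-mSGcm. Its highest libraries were those of E15.5-mSGcm and its lowest those of E8-cSGcm, but no fold reached 1.5 against control medium (1.27 in E15.5-mSGcm, log2 fold change 0.35, adjusted p = 2.45e-06). INSIG2 (ENSG00000125629), the second INSIG protein, had 18.7 and 18.2 CPM in control medium, 18.0 and 17.7 in E8-cSGcm, 21.0 and 20.9 in E8-cDRGcm and 24.0 and 24.6 in E15.5-mSGcm, with log2 fold changes of -0.04, 0.18 and 0.40. SCAP (ENSG00000114650) had 114 and 126 CPM in control medium, 123 and 118 in E8-cSGcm, 110 and 114 in E8-cDRGcm and 98.3 and 100 in E15.5-mSGcm, with log2 fold changes of 0.01, -0.10 and -0.28. Neither INSIG2 nor SCAP was called in any medium.

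Most of the 18 enzymes of the mevalonate and sterol steps were not called in a given medium. In E15.5-mSGcm 6 were higher and none lower against control medium, in E8-cDRGcm 6 were lower and none higher, and in E8-cSGcm 1 was lower and none higher. Of all tested genes, 6.65% were higher and 7.27% lower in E15.5-mSGcm, 9.81% and 10.9% in E8-cDRGcm and 4.73% and 3.86% in E8-cSGcm. The median log2 fold change of the 18 enzymes was 0.37 in E15.5-mSGcm, -0.32 in E8-cDRGcm and -0.11 in E8-cSGcm. With the 12 genes not called in E15.5-mSGcm included, 16 of 18 had a value above 0 there. In E8-cDRGcm 13 of 18 and in E8-cSGcm 16 of 18 had a value below 0. The signs over all tested genes were not counted. The plot of log2 fold changes by role gives each gene with its interval.

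Of the 7 genes of the mevalonate steps, HMGCS1 and IDI1 rose in E15.5-mSGcm, and MVK and IDI1 fell in E8-cDRGcm. HMGCS1 (ENSG00000112972), which condenses acetyl-CoA units into the precursor of mevalonate, had 201 and 193 CPM in control medium, 174 and 171 in E8-cSGcm, 153 and 134 in E8-cDRGcm and 359 and 334 in E15.5-mSGcm. The groups did not overlap, and the order was E15.5-mSGcm, control medium, E8-cSGcm and E8-cDRGcm. It rose 1.76-fold in E15.5-mSGcm (log2 fold change 0.81, SE 0.0555, adjusted p = 1.15e-14), and its log2 fold change was -0.19 in E8-cSGcm and -0.45 in E8-cDRGcm, neither past the fold criterion. A gene on the opposite strand overlaps 37.7% of the exonic length of HMGCS1, and the strand setting of the counting is not given in the sources used here.

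IDI1 (ENSG00000067064), which interconverts the isoprenoid building blocks, had 170 and 165 CPM in control medium, 126 and 135 in E8-cSGcm, 101 and 90.5 in E8-cDRGcm and 303 and 286 in E15.5-mSGcm. Its libraries fell into 4 separate levels, with E15.5-mSGcm on top and E8-cDRGcm at the bottom. It rose 1.76-fold in E15.5-mSGcm (log2 fold change 0.82, SE 0.0552, adjusted p = 7.9e-15) and fell 1.75-fold in E8-cDRGcm (log2 fold change -0.81, SE 0.0578, adjusted p = 1.82e-14). In the direct comparison, which uses the same libraries, IDI1 was 3.08-fold higher in E15.5-mSGcm than in E8-cDRGcm (log2 difference 1.62, SE 0.058, adjusted p = 1.79e-23).

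MVK (ENSG00000110921), the mevalonate kinase, had 38.2 and 35.2 CPM in control medium, 26.2 and 29.8 in E8-cSGcm, 20.4 and 21.5 in E8-cDRGcm and 41.1 and 42.5 in E15.5-mSGcm. Both chick media lay below control medium, and the fall in E8-cDRGcm was 1.75-fold (log2 fold change -0.80, SE 0.0913, adjusted p = 2.16e-09). The other 4 genes of the mevalonate steps, ACAT2 (acetoacetyl-CoA formation), PMVK and MVD (phosphorylation and decarboxylation of mevalonate) and FDPS (farnesyl diphosphate synthesis), were not called in any medium against control. Their log2 fold changes were between -0.48 (ACAT2 in E8-cSGcm) and 0.41 (ACAT2 in E15.5-mSGcm). PMVK and FDPS, next to MVK and IDI1 in the pathway, had log2 fold changes of -0.16 and -0.17 in E15.5-mSGcm.

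Of the 11 genes of the sterol steps, 4 were higher in E15.5-mSGcm (MSMO1, HSD17B7, SC5D and DHCR7), and 4 were lower in E8-cDRGcm (LSS, TM7SF2, NSDHL and HSD17B7). Among all tested genes, 6.65% were higher in E15.5-mSGcm and 10.9% lower in E8-cDRGcm. SC5D (ENSG00000109929), a sterol desaturase near the end of the pathway, had 91.8 and 86.9 CPM in control medium, 84.9 and 86.9 in E8-cSGcm, 89.6 and 86.9 in E8-cDRGcm and 146 and 162 in E15.5-mSGcm. Control and both chick media held similar levels, with log2 fold changes of -0.05 (95% interval -0.18 to 0.07) and -0.02 (-0.14 to 0.11). In E15.5-mSGcm it rose 1.73-fold (log2 fold change 0.79, SE 0.0606, adjusted p = 2.56e-13).

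DHCR7 (ENSG00000172893), the reductase of the final step, had 62.3 and 61.0 CPM in control medium, 55.2 and 60.3 in E8-cSGcm, 49.2 and 47.5 in E8-cDRGcm and 99.3 and 99.4 in E15.5-mSGcm. It rose 1.61-fold in E15.5-mSGcm (log2 fold change 0.69, SE 0.0668, adjusted p = 1.12e-10), with the lowest libraries in E8-cDRGcm (log2 fold change -0.35, not called). MSMO1 (ENSG00000052802), which oxidises methyl groups of lanosterol derivatives, had 74.5 and 75.3 CPM in control medium, 92.6 and 93.1 in E8-cSGcm, 100 and 94.0 in E8-cDRGcm and 121 and 110 in E15.5-mSGcm. All 6 libraries of conditioned media lay above both control libraries, with log2 fold changes of 0.31, 0.37 and 0.62. It was called in E15.5-mSGcm (fold 1.54, adjusted p = 3.71e-10), and the call was lost without E15.5-mSGcm replicate 1 (log2 fold change 0.55) and after GC content and length were corrected for (0.51).

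HSD17B7 (ENSG00000132196), the ketoreductase that acts between NSDHL and the final steps, had fewer reads, with 10 and 11 CPM in control medium, 10.4 and 11.1 in E8-cSGcm, 8.60 and 5.13 in E8-cDRGcm and 14.1 and 18.0 in E15.5-mSGcm. Its libraries in E8-cDRGcm lay below, and those in E15.5-mSGcm above, the control libraries. The log2 fold change was -0.62 in E8-cDRGcm (SE 0.175, adjusted p = 0.00373) and 0.62 in E15.5-mSGcm (SE 0.164, adjusted p = 0.00313), and the direct difference was 1.24 (SE 0.177, adjusted p = 4.91e-07). Both calls against control rested on single libraries: the value in E8-cDRGcm was -0.29 without E8-cDRGcm replicate 2 and -0.55 without control replicate 2, and the value in E15.5-mSGcm was 0.42 without E15.5-mSGcm replicate 2 and 0.56 without control replicate 1. A pseudogene, HSD17B7P2, could share reads with it.

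LSS (ENSG00000160285), which folds squalene epoxide into lanosterol, had 17.5 and 16.2 CPM in control medium, 10.2 and 9.80 in E8-cSGcm, 11.6 and 9.38 in E8-cDRGcm and 21.4 and 20.9 in E15.5-mSGcm. It was the only gene of the mevalonate and sterol steps called in E8-cSGcm, with a 1.68-fold decrease (log2 fold change -0.75, SE 0.126, adjusted p = 1.21e-05). In E8-cDRGcm the decrease was 1.6-fold (log2 fold change -0.68, SE 0.125, adjusted p = 1.86e-05), and without E8-cDRGcm replicate 2 it was -0.54 and was no longer called. The log2 fold change in E15.5-mSGcm was 0.33 and was not called.

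TM7SF2 (ENSG00000149809), a sterol reductase that acts after CYP51A1, had 22.7 and 21.8 CPM in control medium, 19.6 and 19.5 in E8-cSGcm, 8.68 and 12.1 in E8-cDRGcm and 22.7 and 22.0 in E15.5-mSGcm. It showed the deepest fall of the 18 enzymes, 2.14-fold in E8-cDRGcm (log2 fold change -1.09, SE 0.121, adjusted p = 1.19e-09), and lay at control level in E15.5-mSGcm (0.01, 95% interval -0.23 to 0.24). NSDHL (ENSG00000147383), a sterol dehydrogenase, had 33.8 and 36.8 CPM in control medium, 30.9 and 33.7 in E8-cSGcm, 21.1 and 22.7 in E8-cDRGcm and 49.5 and 44.8 in E15.5-mSGcm. Its fall in E8-cDRGcm was 1.61-fold (log2 fold change -0.69, SE 0.0913, adjusted p = 5.93e-08), and the log2 fold change of 0.41 in E15.5-mSGcm did not reach the fold criterion.

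The other 4 genes of the sterol steps were FDFT1 and SQLE, which make and oxidise squalene, CYP51A1, which demethylates lanosterol, and EBP, a sterol isomerase. None was called against control medium, with log2 fold changes between -0.29 and 0.49, both in SQLE. SQLE had 322 to 334 and FDFT1 391 to 412 CPM in control medium, and their log2 fold changes in E15.5-mSGcm, 0.49 and 0.34, had an adjusted p of 7.36e-10 and 5.85e-07 but stayed under 1.5-fold. Other annotated genes on the same strand overlap 68.2% of the exonic length of CYP51A1 and 36.4% of that of EBP, so the counts of both are uncertain.

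Of the 3 transport genes, NPC2 rose in E8-cDRGcm and E15.5-mSGcm, STARD4 rose in E15.5-mSGcm and NPC1 was not called. NPC2 (ENSG00000119655), which takes up cholesterol in the lysosome and passes it to NPC1, had 4.43 and 3.95 CPM in control medium, 4.01 and 4.62 in E8-cSGcm, 7.55 and 7.54 in E8-cDRGcm and 12.9 and 12.3 in E15.5-mSGcm. The levels of E8-cSGcm and control medium overlapped, and those of the other media stood apart from them and from each other. The rise was 1.81-fold in E8-cDRGcm (log2 fold change 0.85, SE 0.181, adjusted p = 0.000154) and 3.02-fold in E15.5-mSGcm (1.59, SE 0.179, adjusted p = 3.73e-09). NPC1, its membrane partner, had 32.5 and 35 CPM in control medium, with log2 fold changes of 0.23, 0.49 and 0.24 in the 3 media.

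STARD4 (ENSG00000164211), which carries cholesterol between membranes in the cytosol, had 166 and 157 CPM in control medium, 164 and 170 in E8-cSGcm, 112 and 106 in E8-cDRGcm and 256 and 236 in E15.5-mSGcm. Its libraries were lowest in E8-cDRGcm and highest in E15.5-mSGcm. The rise in E15.5-mSGcm was 1.52-fold (log2 fold change 0.61, SE 0.0549, adjusted p = 1.81e-11), and this call was lost without E15.5-mSGcm replicate 1 (0.55), without control replicate 2 (0.57) and after the GC content and length correction (0.46). The log2 fold change of -0.57 in E8-cDRGcm, a fold of 1.48, was not called, and passed the fold criterion without E8-cDRGcm replicate 1 (-0.62) or control replicate 2 (-0.61).

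Of the 7 tested genes of fatty acid synthesis, FADS1, FADS2 and ELOVL6 fell in E8-cSGcm, and these 3 and FASN fell in E8-cDRGcm, where 3.86% and 10.9% of all tested genes were called lower. SCD, ACLY and LPIN1 were not called in any medium, and none of the 7 was called in E15.5-mSGcm. Their median log2 fold change was -0.48 in E8-cSGcm, -0.67 in E8-cDRGcm and 0.11 in E15.5-mSGcm. FADS2 (ENSG00000134824), the desaturase that starts polyunsaturated fatty acid synthesis, had 424 and 409 CPM in control medium, 244 and 253 in E8-cSGcm, 212 and 209 in E8-cDRGcm and 425 and 421 in E15.5-mSGcm. The 4 libraries of chick media lay well below the 4 others, and those of control medium and E15.5-mSGcm overlapped. The decrease was 1.68-fold in E8-cSGcm (log2 fold change -0.74, SE 0.0479, adjusted p = 4.62e-15) and 1.98-fold in E8-cDRGcm (-0.99, SE 0.0484, adjusted p = 3.46e-19).

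FADS1 (ENSG00000149485), the desaturase that follows FADS2, had 354 and 368 CPM in control medium, 234 and 236 in E8-cSGcm, 213 and 228 in E8-cDRGcm and 395 and 386 in E15.5-mSGcm. It fell 1.54-fold in E8-cSGcm (log2 fold change -0.62, SE 0.0493, adjusted p = 1.43e-12) and 1.64-fold in E8-cDRGcm (-0.71, SE 0.0494, adjusted p = 7.1e-15). ELOVL6 (ENSG00000170522), which lengthens palmitate, had 75.2 and 71.7 CPM in control medium, 45.9 and 44.8 in E8-cSGcm, 48.4 and 43.7 in E8-cDRGcm and 84.4 and 76.8 in E15.5-mSGcm. Its decrease was 1.62-fold in E8-cSGcm (log2 fold change -0.70, SE 0.071, adjusted p = 7.09e-10) and 1.59-fold in E8-cDRGcm (-0.67, SE 0.0707, adjusted p = 3.63e-10). For both genes the libraries of the chick media lay below those of control medium and E15.5-mSGcm.

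FASN (ENSG00000169710), the fatty acid synthase, had the most reads of the list, with 1340 and 1460 CPM in control medium, 1070 and 935 in E8-cSGcm, 830 and 846 in E8-cDRGcm and 1310 and 1360 in E15.5-mSGcm. It fell 1.67-fold in E8-cDRGcm (log2 fold change -0.74, SE 0.0549, adjusted p = 3.77e-13), and its log2 fold change of -0.48 in E8-cSGcm was under the fold criterion. The libraries of E15.5-mSGcm and control medium overlapped. SCD, which desaturates stearate, and LPIN1, a phosphatase of glycerolipid synthesis, were not called, with log2 fold changes of -0.27, -0.48 and 0.27 for SCD and of -0.41, -0.24 and 0.56 for LPIN1 in E8-cSGcm, E8-cDRGcm and E15.5-mSGcm. ACLY, which supplies cytosolic acetyl-CoA to both pathways, was the steadiest, with 225 to 250 CPM over the 8 libraries and log2 fold changes between -0.11 and -0.00.

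ACACA, the acetyl-CoA carboxylase of the committed step, was listed at 0 in all 8 libraries and was not tested. Of the 29 protein-coding genes within 1 Mb of it, itself included, 20 were listed at 0 in all libraries and 28 had at most 20 counts in total, among them PSMB3 and AATF, which most cells use. No statement on the expression of ACACA is made from these zeros.

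The 4 genes of efflux and its control did not move together. MYLIP (ENSG00000007944) had 4.28 and 3.75 CPM in control medium, 8.02 and 9.94 in E8-cSGcm, 10.6 and 9.52 in E8-cDRGcm and 11.9 and 15.1 in E15.5-mSGcm. All 6 libraries of conditioned media lay above both control libraries. The rise was 2.25-fold in E8-cSGcm (log2 fold change 1.17, SE 0.183, adjusted p = 3.66e-06), 2.51-fold in E8-cDRGcm (1.33, SE 0.179, adjusted p = 8.38e-08) and 3.39-fold in E15.5-mSGcm (1.76, SE 0.184, adjusted p = 6.69e-10).

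ABCA1 (ENSG00000165029), which loads cholesterol onto lipid-poor apolipoproteins, had 82.3 and 87.1 CPM in control medium, 42.0 and 35.6 in E8-cSGcm, 49.4 and 43.5 in E8-cDRGcm and 62.3 and 69.8 in E15.5-mSGcm. The control libraries were the highest and those of the chick media the lowest. It fell 2.19-fold in E8-cSGcm (log2 fold change -1.13, SE 0.078, adjusted p = 7.98e-14) and 1.83-fold in E8-cDRGcm (-0.87, SE 0.0759, adjusted p = 7.06e-12), and was not called in E15.5-mSGcm (-0.36, adjusted p = 0.000352). In E15.5-mSGcm it stood 1.71-fold higher than in E8-cSGcm (adjusted p = 1.92e-09).

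ABCG1 (ENSG00000160179), which moves cholesterol to mature lipoproteins, had 10.2 and 11.5 CPM in control medium, 11.9 and 12.3 in E8-cSGcm, 16.5 and 17.1 in E8-cDRGcm and 3.59 and 3.54 in E15.5-mSGcm. Its order of media was thus unlike that of ABCA1, with the highest libraries in E8-cDRGcm and the lowest in E15.5-mSGcm. It fell 3.05-fold in E15.5-mSGcm (log2 fold change -1.61, SE 0.19, adjusted p = 1.1e-08) and rose 1.55-fold in E8-cDRGcm (0.63, SE 0.123, adjusted p = 5e-05), a call that was lost without control replicate 1 (0.55) and after all libraries were thinned to the smallest one (0.55). The direct difference, E15.5-mSGcm minus E8-cDRGcm, was -2.24 (SE 0.177, adjusted p = 1.78e-13). NR1H2 (ENSG00000131408), which encodes the LXR form found in most tissues, had 11.4 and 13.0 CPM in control medium, 10.7 and 12.5 in E8-cSGcm, 9.80 and 10.7 in E8-cDRGcm and 12.9 and 13.3 in E15.5-mSGcm, and was not called.

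The media were also compared with each other. Between the chick media, E8-cDRGcm minus E8-cSGcm, NPC2 was higher and TM7SF2, HSD17B7 and STARD4 were lower in E8-cDRGcm, with 2.62% of all tested genes called higher and 4.87% lower. TM7SF2 had the largest of these differences (log2 difference -0.91, SE 0.125, adjusted p = 4.66e-07), followed by NPC2 (0.80, SE 0.182, adjusted p = 0.000781), HSD17B7 (-0.66, SE 0.175, adjusted p = 0.00451) and STARD4 (-0.62, SE 0.0563, adjusted p = 5.85e-11). Without E8-cDRGcm replicate 2, HSD17B7 (-0.33) and STARD4 (-0.58) were not called. None of the 7 tested genes of fatty acid synthesis was called between the chick media, where FADS2 had a log2 difference of -0.24 (95% interval -0.34 to -0.14) and ELOVL6 of 0.02 (-0.13 to 0.18).

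Against E8-cSGcm, 15 of the 37 genes were higher in E15.5-mSGcm and 1 was lower, with 10.2% and 12.1% of all tested genes. Against E8-cDRGcm, 21 were higher and 1 was lower, with 13.1% and 13.1% of all tested genes. The gene that was lower was ABCG1 in both comparisons, and 12 genes were higher in E15.5-mSGcm than in each chick medium: INSIG1, HMGCS1, IDI1, SQLE, LSS, SC5D, DHCR7, NPC2, ELOVL6, FADS1, FADS2 and LPIN1. How many of all tested genes were higher than in each chick medium was not counted. The median log2 difference of the 37 genes was 0.56 against E8-cSGcm and 0.74 against E8-cDRGcm, where that of all tested genes was -0.013 and -0.001. These comparisons share the libraries of E15.5-mSGcm, which were the most shallowly sequenced.

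By role, 7 of 18 enzymes of the mevalonate and sterol steps were higher in E15.5-mSGcm than in E8-cSGcm and 11 of 18 than in E8-cDRGcm, and none was lower. For fatty acid synthesis the numbers were 4 and 6 of 7, and none was lower. Among all tested genes, 10.2% were higher in E15.5-mSGcm than in E8-cSGcm and 13.1% than in E8-cDRGcm. The sterol genes IDI1 (log2 difference 1.62), HMGCS1 (1.27) and HSD17B7 (1.24) had the largest differences from E8-cDRGcm among the enzymes. SQLE, which was not called in any medium against control, was 1.55-fold higher in E15.5-mSGcm than in E8-cSGcm (adjusted p = 6.52e-13) and 1.72-fold higher than in E8-cDRGcm (adjusted p = 1.28e-15). The same held for LPIN1, at 1.96-fold (adjusted p = 8.35e-12) and 1.74-fold (adjusted p = 3.55e-10). The call of SQLE against E8-cSGcm was lost without E15.5-mSGcm replicate 1 (log2 difference 0.58). ACAT2 was called against E8-cSGcm (1.85-fold higher in E15.5-mSGcm, adjusted p = 8.87e-12) and not against E8-cDRGcm (1.32-fold). SCD was called against E8-cDRGcm (1.68-fold, adjusted p = 7.84e-16) and not against E8-cSGcm (1.46-fold). FDFT1, at 1.5-fold against E8-cDRGcm (log2 difference 0.59), was not called without E15.5-mSGcm replicate 1 (0.57) or without E8-cDRGcm replicate 2 (0.56). MYLIP, also called against E8-cSGcm (0.59), was not called without E15.5-mSGcm replicate 2 (0.40) or without E8-cSGcm replicate 1 (0.45). Genes of the mevalonate steps were not uniform: FDPS had a log2 difference of -0.35 from E8-cDRGcm and PMVK of 0.20, neither called.

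Levels were compared between genes per kb of exonic length. In control medium FASN was highest at 150 CPM per kb, followed by FDFT1 (79.0), SQLE (76.2) and SCD (73.6), and the lowest tested genes were ABCG1 (1.77), NPC2 (1.62) and MYLIP (1.31). SCD was below FDFT1 and SQLE in all 4 media. FDFT1 was above SQLE except in E15.5-mSGcm, where SQLE had 107 and FDFT1 99.9 CPM per kb. IDI1 had 39.0 CPM per kb in control medium and 68.7 in E15.5-mSGcm, and ABCG1 went down to 0.582 in E15.5-mSGcm, the lowest group mean of any tested gene of the list. The lengths are those of all annotated exons of a gene, so the values per kb depend on the annotation.

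A further 59 genes of the same pathways, not in the list above, were examined, of which 51 were tested. In E8-cSGcm 2 were higher and 2 lower, in E8-cDRGcm 6 were higher and 3 lower, and in E15.5-mSGcm none was higher and 4 were lower, with median log2 fold changes of 0.03, 0.06 and -0.01. Of all tested genes, 4.73% were higher and 3.86% lower in E8-cSGcm, 9.81% and 10.9% in E8-cDRGcm and 6.65% and 7.27% in E15.5-mSGcm. The 24 tested genes of fatty acid metabolism among them had medians of 0.04 in E8-cSGcm and 0.03 in E8-cDRGcm. Of the 51 genes, those called in E8-cSGcm were FADS3 (log2 fold change 0.81) and VLDLR (0.73), which were higher, and ACSL6 (-0.82) and GPAM (-0.62), which were lower. FADS3 is a relative of FADS1 and FADS2, VLDLR a lipoprotein receptor, ACSL6 an acyl-CoA ligase and GPAM the enzyme that starts glycerolipid synthesis. Among called genes, the largest increases in E8-cDRGcm were in the elongase ELOVL7 (1.46), FADS3 (1.02) and VLDLR (1.00), and GPAM (-0.81), ERG28 (-0.71), a scaffold of the sterol enzymes, and TMEM97 (-0.68), an NPC1-binding protein, were lower. Among the 4 genes called lower in E15.5-mSGcm, the largest decreases were in AGPAT2 (-1.81), an acyltransferase of glycerolipid synthesis, CYP27A1 (-0.82), which makes an oxysterol, and SCARB1 (-0.68), a lipoprotein receptor.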

How the data were processed

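RNA-seq was performed on 8 libraries of IGR-N91 aggregates, 2 for each of 4 media, named by their labels. The authors prepared stranded libraries from 50 ng of total RNA, sequenced single reads of 75 bp, trimmed them (cutadapt 1.9.1), mapped them (TopHat2 2.1.0) and counted them per gene (HTSeq 0.11.3), and deposited raw counts without normalization. The study's text gives hg19 as the build and the submitters' processing notes give hg38, so no gene position is printed beyond the RefSeq promoters. The strand option and annotation release of the counting are not given in the sources used here. Symbols, exonic lengths and GC content came from GENCODE release 44, which named 58611 of 60676 identifiers.

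After TMM normalization, counts were tested by the quasi-likelihood test of edgeR 4.0.16 in R 4.3.3 (filterByExpr by group, robust fit, 1 model of 8 libraries), with Benjamini-Hochberg adjustment over 16680 genes. CPM values are counts scaled to the TMM-adjusted library size. A list was described by counts and medians, with no test of its own. An exact permutation test of 2 against 2 libraries cannot go below p = 0.333 and was not used. Steps were tested on simulated data. Counts of 3, the floor taken here, cover counting error only. The other settings were DESeq2 1.42.0, scaling by RLE, a low-count filter of 1 count summed over libraries or of 10 in each library, a model of the 2 groups compared, calls by adjusted p without the fold criterion, a block for the replicate number, thinning to 7930765 counts, and each library left out. A spline correction (5 degrees of freedom) for GC content and length, without and with the block, was chosen after seeing the data. The members and lists were chosen with earlier results of these data known. Values in every library are given for regulators, efflux genes and members called against control, and up to 3 other pathway genes per direction and medium are named. A marker gene of the glia list is not reported here. Figures were drawn with matplotlib 3.10.9.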

Additional observations from a re-analysis of the deposited data

Results flagged for a closer look

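IDI1, HSD17B7 and ABCG1 were called in opposite directions in E8-cDRGcm and E15.5-mSGcm. They were picked for these calls, and the direct difference between these media uses the same libraries. It therefore gives the size of the gap and is no separate support. The log2 difference, E15.5-mSGcm minus E8-cDRGcm, was 1.62 for IDI1, 1.24 for HSD17B7 and -2.24 for ABCG1 (edgeR quasi-likelihood test, adjusted p = 1.79e-23, 4.91e-07 and 1.78e-13). Both libraries of each medium lay on their own side of both control libraries for the 3 genes, which also largely follows from that choice. The calls of HSD17B7 against control, and that of ABCG1 in E8-cDRGcm, were lost when single libraries were left out. Those of IDI1 were kept under all 18 other settings, of which calls by adjusted p alone could not fail.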

How the results depend on the processing

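Of 32 calls of a gene in a medium against control, 26 were kept under all 18 other settings, 6 were lost under at least 1 and none reversed. Among the 18, calls by adjusted p alone could not lose or reverse a call, since they only drop the fold criterion. Leaving out a library of a group not compared could act only through the scaling and the shared spread. The 6 were ABCG1, LSS and HSD17B7 in E8-cDRGcm and HSD17B7, MSMO1 and STARD4 in E15.5-mSGcm, all with folds between 1.52 and 1.6; the cause was not tested. The correction for GC content and length ended the calls of HSD17B7 (0.55), MSMO1 (0.51) and STARD4 (0.46) in E15.5-mSGcm, as did the filter at 1 count in total (0.56, 0.57 and 0.55). SREBF1 in E8-cSGcm, just short of 1.5-fold, was called with DESeq2 (-0.59), RLE (-0.59), thinning (-0.61) and the GC content and length correction (-0.66). Between media, 5 calls at small folds (HSD17B7, STARD4, SQLE, MYLIP and FDFT1) were lost under at least 1 setting. With adjusted p alone, 2679 of all 16680 tested genes were higher and 2534 lower in E8-cSGcm. The numbers were 4143 and 4118 in E8-cDRGcm and 2975 and 3330 in E15.5-mSGcm. For the media against each other, in the order below, they were 2456 and 2581, 3979 and 4325, and 4297 and 4470. Among the listed genes, 3 were higher and 15 lower in E8-cSGcm, 6 and 20 in E8-cDRGcm and 20 and 4 in E15.5-mSGcm. Listed genes numbered 7 and 15 for E8-cDRGcm minus E8-cSGcm, 27 and 2 for E15.5-mSGcm minus E8-cSGcm, and 27 and 4 for E15.5-mSGcm minus E8-cDRGcm. All these numbers are larger by the construction of that setting. Leaving out single libraries gave 1 higher and 5 to 6 lower in E8-cSGcm, 2 to 3 and 10 to 13 in E8-cDRGcm, 8 to 10 and 1 in E15.5-mSGcm, 1 and 2 to 4 for E8-cDRGcm minus E8-cSGcm, 15 to 18 and 1 for E15.5-mSGcm minus E8-cSGcm, and 20 to 22 and 1 for E15.5-mSGcm minus E8-cDRGcm.

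Values that changed sign belonged to genes that were not called. In E8-cSGcm these were SCAP (-0.00 with DESeq2 and RLE, -0.06 with the GC content and length correction, with and without the block, -0.01 when thinned, -0.06 to 0.08 without single libraries), NR1H2 (0.03 when thinned, -0.20 to 0.04 without single libraries), SC5D (0.03 when thinned), and, without single libraries, HSD17B7 (-0.02 to 0.11) and NPC2 (-0.06 to 0.15). In E8-cDRGcm SC5D had -0.06 to 0.02 without single libraries. In E15.5-mSGcm these were SREBF1 (0.12) and FASN (0.18) with the GC content and length correction, with and without the block, FADS2 (-0.03 with the filter at 1 count in total, -0.00 to 0.05 without single libraries) and TM7SF2 (-0.05 with that filter, -0.06 when thinned, -0.02 to 0.04 without single libraries). For FASN the edgeR adjusted p under the GC content and length correction was 0.0044 without the block and 0.0104 with it. Without the correction its log2 fold change was -0.07 (adjusted p = 0.361).

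Same-numbered libraries of different groups did not deviate together (correlations across 16680 genes of -0.0437 to 0.042), so the numbers were not taken as pairs. With the replicate number as a block, the genes called higher and lower were 1 and 5 in E8-cSGcm, 3 and 12 in E8-cDRGcm and 10 and 1 in E15.5-mSGcm, as without it. Depth limits E15.5-mSGcm most, where 3 counts are up to 0.384 CPM.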
